A study of Homo sapiens with 5 samples.

Results

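Mitosis separates the duplicated chromosomes between a pair of daughter cells, and the genes described here encode parts of the machinery that does so. They are 57 genes given as a list of gene symbols, drawn up with earlier results of these data known but with no threshold on a measured value, and mapped by Ensembl identifier to the 31029 genes listed for both cell lines of the study. All 57 were found in both. RNA-seq was performed on 501Mel cells, a human melanoma line, and on Hermes 3A cells, an immortalised human melanocyte line. Every library came from cells infected with a lentivirus expressing an shRNA against BPTF, the largest subunit of the chromatin remodelling complex NURF, and selected with puromycin, so that the knockdown is shared by both groups. There were 2 libraries of 501Mel shBPTF cells and 3 of Hermes 3A shBPTF cells.

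The comparison of the lines after shBPTF is the one these libraries allow. Control libraries were not analysed here, and no effect of the knockdown itself can be read from the values below. The Hermes 3A cells were grown with TPA, cholera toxin, stem cell factor and endothelin-1, which the medium of the 501Mel cells did not contain, so that line and medium cannot be told apart. The lines also have different genes listed (37259 for 501Mel and 34033 for Hermes 3A). Any difference in how reads were counted therefore goes with the line as well. The study used a pair of shRNAs against BPTF, and which one each library carries is not given in the sources used here. Each line is 1 established culture, and the labels do not say whether replicates were separate infections, so that p-values measure the spread between these libraries, which may be technical. In bulk RNA, fewer dividing cells and less RNA per dividing cell cannot be told apart.

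Entry into mitosis is driven by cyclin-dependent kinase 1, Polo and Aurora kinases, and the transcription factor FOXM1 activates many of the genes expressed at this stage. Kinetochores form on the centromeres and hold the spindle microtubules through the NDC80 complex, the checkpoint delays anaphase until all chromosomes are attached, kinesins move and order the microtubules, and the central spindle and its partners complete cytokinesis. Transcripts of most of these genes accumulate in G2 and mitosis and are low in quiescent or arrested cells, which is why they are widely used as a measure of proliferation.

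The libraries held between 30073071 and 43032311 counts. BPTF itself, the targeted gene, was at 63.7 and 57.1 CPM (read counts scaled to a common library size) in 501Mel cells and at 48.7, 50.9 and 54.9 CPM in Hermes 3A cells, and with no control library this does not check the knockdown. All 7 melanocyte markers looked up (MITF, SOX10, PMEL, TYR, MLANA, TYRP1, DCT) were detected in every library, with summed levels of 12314 to 19421 CPM in 501Mel and 31778 to 34864 CPM in Hermes 3A cells. Most of these sums came from PMEL and TYRP1. SOX10, PMEL, TYR, MLANA and TYRP1 were lower in both 501Mel libraries than in any Hermes 3A library, and MITF overlapped. DCT went the other way, at 1034 and 1284 CPM in 501Mel against 7.85, 8.70 and 13.3 CPM in Hermes 3A cells. The 6 fibroblast markers summed to 3.39 to 16.0 CPM in 501Mel cells, mostly from LUM and COL1A1, with COL1A2 at 0.0675 and 0.104 CPM. In Hermes 3A cells they summed to 82.7 to 192 CPM, nearly all from COL1A2. PTPRC, the leukocyte marker, was at 2 and 0 counts in the 501Mel libraries and at 0 in the 3 Hermes 3A libraries. Hermes 3A replicate 1 was less close to the other melanocyte libraries than these were to each other. Its Pearson r across genes was 0.978 and 0.975 against replicates 2 and 3, which had 0.989 with each other. The 501Mel libraries had 0.980 with each other, so these correlations alone do not single out replicate 1. Hermes 3A replicate 1 differed in the mitosis genes too, as described below, and the results are given with and without it.

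The mitosis genes were higher in 501Mel than in Hermes 3A cells, nearly without exception. Their summed level was 5746 and 4541 CPM in the 501Mel libraries and 1219, 535 and 761 CPM in Hermes 3A replicates 1, 2 and 3, a mean of 5143 ± 852 (SD, n = 2) against 838 ± 348 (SD, n = 3). The lowest 501Mel library was thus well above the highest Hermes 3A library. In the edgeR fit over all 17975 genes with sufficient counts, every one of the 57 genes was tested, and 55 passed a Benjamini-Hochberg adjusted p of 0.05 as higher in 501Mel cells, where 24.2% of all genes tested did so. None was called lower in 501Mel cells (24.0% of all genes were), 0 were lower at an unadjusted p under 0.05, and DESeq2 called 0 lower as well. The genes that did not pass were BUB3 and PTTG1. Both 501Mel libraries were above all 3 Hermes 3A libraries for 56 genes, a pattern that 35.7% of all genes tested showed, and PTTG1 was the gene that overlapped. The median log2 fold change over the 57 genes was 3.09, beside 0.02 over all genes tested, and it was 3.79 without Hermes 3A replicate 1, with 56 genes called.

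**Figure D1:**
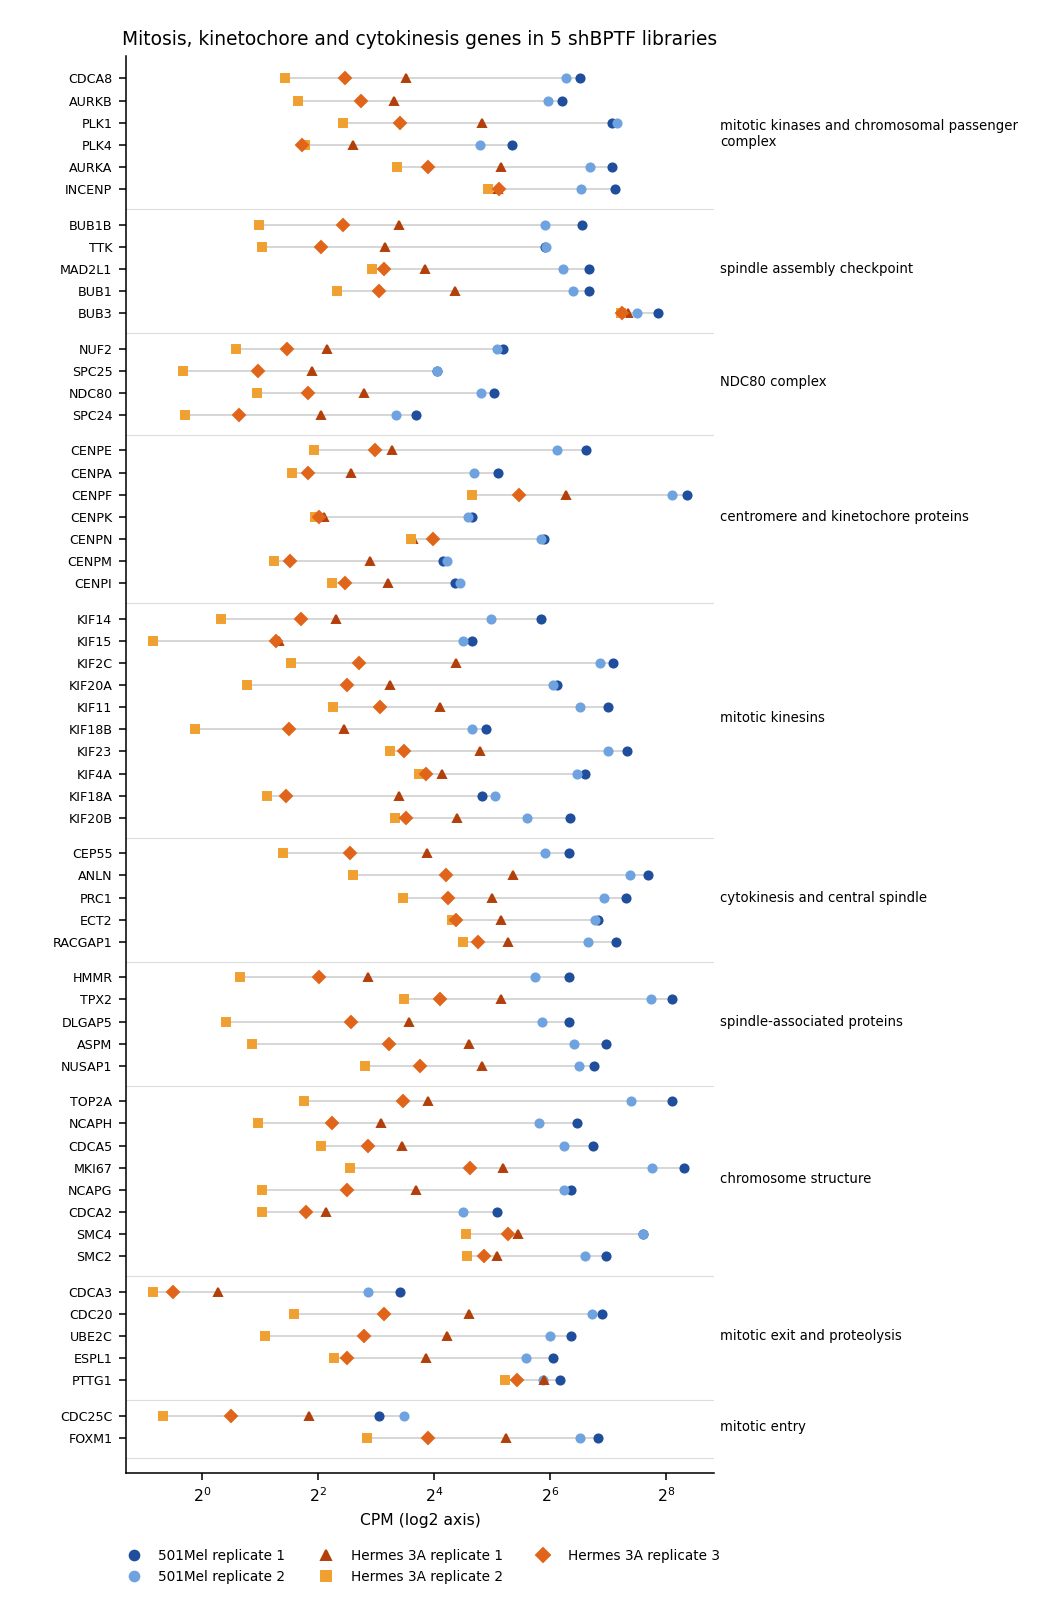
CPM of each of the 57 genes (rows, by role, on a log2 axis) in the 2 libraries of 501Mel cells (blue circles) and the 3 of Hermes 3A cells (red triangles, yellow squares and orange diamonds for replicates 1, 2 and 3). The blue points lie to the right of all others in 56 rows, and the yellow squares of Hermes 3A replicate 2 lie at the left end of most rows.

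**Figure D2:**
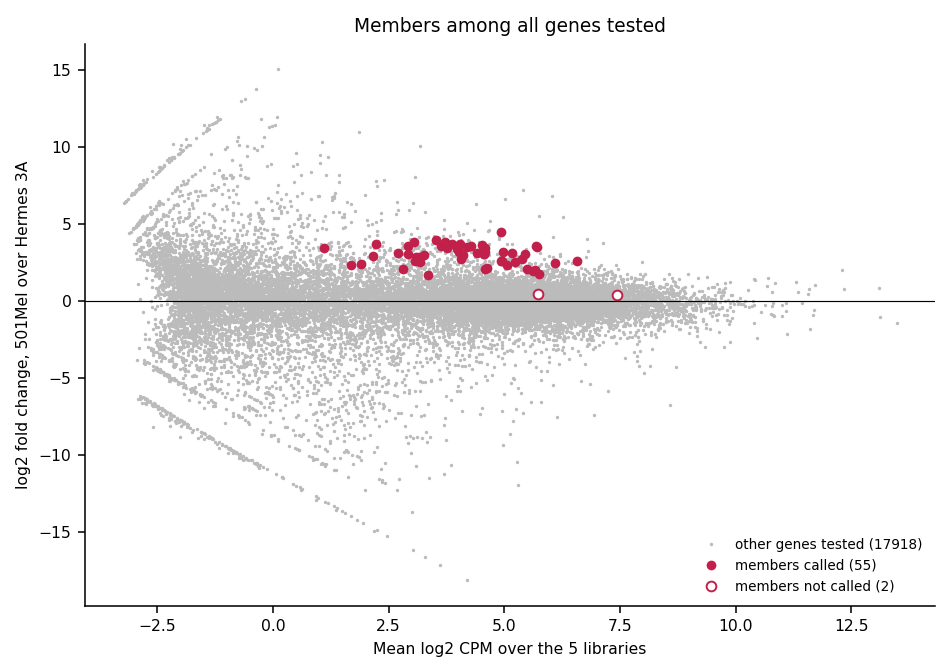
Log2 fold change of 501Mel over Hermes 3A cells (y axis) against the mean log2 CPM over the 5 libraries (x axis) for every gene tested, in grey, with the 57 mitosis genes in red. The 55 filled points passed the adjusted p and the 2 open points, BUB3 and PTTG1, did not.

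The promoters of these genes were read for the elements known from cell cycle genes. Many G2/M genes carry a cell cycle genes homology region (CHR, TTTGAA), bound by the DREAM and MuvB complexes, often downstream of CCAAT boxes, which NF-Y binds. RefSeq promoters (GRCh38.p14, 250 bases before to 50 after the start) were matched for 48 of the 57 genes, as 58 promoters in all. AURKA, BUB3, CDCA2, CENPM, FOXM1, RACGAP1, TPX2, TTK and UBE2C were not matched. Searched on both strands, TTTGAA was found in 39 of the 58 promoters (67.2%) and in 15.2% of all 35116 promoters of that length. CCAAT was found in 67.2% of the promoters of the mitosis genes and in 34.6% of all, and both together in 50.0% against 5.90%. The E2F-type sequence TTTGGCG was in 4 of 58 (6.90%, against 1.92% of all), TTCGAA, a variant of the CHR, in 3 (5.17%, against 1.45%), and TTTCGCG in 0 of 58 (1.32% of all). These are matches of letters and not sites shown to be bound.

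The 120 bases upstream of the start are shown for 6 of the promoters, chosen after the matches were seen, 4 with both elements within these bases and 2 with a single one there. Capitals mark CCAAT and TTTGAA on either strand (ATTGG and TTCAAA when on the other strand). PLK1 (chr16:23678769-23678888, plus strand) has a CCAAT box that begins 73 bases and a CHR that begins 29 bases before the start. KIF11 (chr10:92593010-92593129, plus strand) has the same order at 53 and 28 bases. CDC20 (chr1:43358861-43358980, plus strand) has its CHR at 65 bases between CCAAT boxes at 100 and 55 bases. MKI67 (chr10:128126424-128126543, minus strand) has TTTGAA at 47 and 29 bases, the latter overlapping the ATTGG at 24 bases, and a further ATTGG at 98 bases. KIF20A (chr5:138178992-138179111, plus strand) has CCAAT boxes at 94 and 67 bases and no TTTGAA in this stretch. CENPA (chr2:26785936-26786055, plus strand) has TTTGAA at 18 bases and no CCAAT in this stretch, its CCAAT matches lying farther upstream, at 205 and 130 bases.
PLK1: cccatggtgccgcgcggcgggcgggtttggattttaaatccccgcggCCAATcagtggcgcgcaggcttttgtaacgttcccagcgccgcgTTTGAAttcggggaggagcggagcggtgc
KIF11: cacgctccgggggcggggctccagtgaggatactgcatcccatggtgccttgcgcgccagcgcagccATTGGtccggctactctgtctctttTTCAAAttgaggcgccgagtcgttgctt
CDC20: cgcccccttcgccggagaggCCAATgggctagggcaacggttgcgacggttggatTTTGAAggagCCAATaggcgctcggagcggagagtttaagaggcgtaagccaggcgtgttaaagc
MKI67: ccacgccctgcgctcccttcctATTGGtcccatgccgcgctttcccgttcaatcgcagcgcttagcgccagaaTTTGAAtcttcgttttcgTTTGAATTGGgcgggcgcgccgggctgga
KIF20A: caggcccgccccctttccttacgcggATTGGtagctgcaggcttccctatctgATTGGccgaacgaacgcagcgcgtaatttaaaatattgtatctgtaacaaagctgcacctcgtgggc
CENPA: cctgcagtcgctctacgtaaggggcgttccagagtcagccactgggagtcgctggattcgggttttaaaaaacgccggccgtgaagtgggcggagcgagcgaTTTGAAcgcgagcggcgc

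The mitotic kinases and the chromosomal passenger complex, which corrects wrong attachments and later marks the division plane, were higher in 501Mel cells in 6 of 6 genes, with a median log2 fold change of 3.11. For this and the role groups below, the share of all genes tested that were called higher was 24.2%. Both 501Mel libraries lay above all Hermes 3A libraries for 35.7% of all genes tested. PLK1, the Polo kinase of mitotic entry and spindle assembly, was at 133 and 142 CPM in 501Mel and at 28.3, 5.40 and 10.7 CPM in Hermes 3A cells, a log2 fold change of 3.21 (SE 0.589, edgeR adjusted p 0.00406). AURKA, the kinase of centrosomes and spindle poles, was at 134 and 103 CPM against 35.6, 10.2 and 14.8 CPM, and AURKB, the kinase of the passenger complex, at 74.0 and 62.5 CPM against 9.87, 3.13 and 6.68 CPM. For all 3 kinases the groups did not overlap, and Hermes 3A replicate 1 was the highest and replicate 2 the lowest melanocyte library.

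The other subunits of the passenger complex held the 2 ends of this group. CDCA8 (borealin) was at 91.8 and 77.4 CPM in 501Mel and at 11.4, 2.68 and 5.53 CPM in Hermes 3A cells (log2 fold change 3.69, SE 0.519). INCENP, the scaffold that binds and activates AURKB, was at 139 and 92.1 CPM against 34.4, 30.6 and 34.6 CPM (3.48-fold higher, SE 0.193 on the log2 scale), and its Hermes 3A libraries were nearly level. Divided by the length of all their exons, these 3 subunits were in 501Mel cells at 30.4 ± 3.63 (AURKB), 34.3 ± 4.11 (CDCA8) and 25.9 ± 7.46 (INCENP) CPM per kb (SD, n = 2). In Hermes 3A cells INCENP was at 7.42 ± 0.508 CPM per kb, above AURKB at 2.93 ± 1.50 and CDCA8 at 2.65 ± 1.81 (SD, n = 3). By the length of the longest transcript instead, AURKB was at 54.4, CDCA8 at 34.3 and INCENP at 29.2 CPM per kb in 501Mel cells, and at 5.23, 2.65 and 8.38 CPM per kb in Hermes 3A cells. INCENP was thus the highest of the 3 in Hermes 3A cells by either length. Its mean was the lowest of the 3 in 501Mel cells, but by exon length INCENP and AURKB did not differ there beyond the SD of INCENP. PLK4, the kinase of centriole duplication, had a log2 fold change of 3.00.

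Of the 5 spindle assembly checkpoint genes, 4 were higher in 501Mel cells (median log2 fold change 3.10). BUB1 was at 101 and 83.9 CPM in 501Mel and at 20.5, 5.01 and 8.23 CPM in Hermes 3A cells. TTK, the kinase (MPS1) that starts the signal at unattached kinetochores, was at 60.0 and 60.9 CPM against 8.85, 2.05 and 4.12 CPM, and the 501Mel libraries were all but equal. BUB1B (BUBR1), part of the complex that inhibits CDC20, had the largest change of the group, at 93.4 and 60.3 CPM against 10.5, 1.98 and 5.37 CPM (log2 fold change 3.69, SE 0.592). MAD2L1 had a log2 fold change of 3.10.

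BUB3 (chr10:123154277-123170467 on GRCh38, plus strand), which brings BUB1 and BUBR1 to the kinetochore, differed from its partners. It was at 233 and 181 CPM in 501Mel and at 162, 149 and 151 CPM in Hermes 3A cells. The groups did not overlap, but the log2 fold change was 0.43 (SE 0.152, edgeR adjusted p 0.0521) and the Hermes 3A libraries differed by at most 1.08-fold. BUB3 passed the threshold when scaled by library totals (adjusted p 0.0272), when only genes with at least 10 counts in every library were tested (0.0375), or without 501Mel replicate 2 (0.0364), with log2 fold changes of 0.46 to 0.58.

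The 4 subunits of the NDC80 complex, the main microtubule coupler of the kinetochore, were all higher in 501Mel cells (median log2 fold change 2.91). NDC80 was at 32.7 and 28.1 CPM in 501Mel and at 6.91, 1.93 and 3.54 CPM in Hermes 3A cells. NUF2, its partner at the microtubule end of the rod, changed most, at 36.2 and 34.1 CPM against 4.42, 1.49 and 2.77 CPM (log2 fold change 3.60, SE 0.413). SPC24, at the centromere end, changed least, at 12.8 and 10.1 CPM against 4.12, 0.820 and 1.55 CPM (log2 fold change 2.40, SE 0.613, edgeR adjusted p 0.0154), and it no longer passed without 501Mel replicate 1 (0.0667) or without Hermes 3A replicate 3 (0.0583). The proteins form the complex in equal numbers, and the transcripts per kb of exon were between 4.03 (SPC24) and 10.4 (NUF2) CPM per kb in 501Mel and between 0.762 (SPC24) and 1.17 (SPC25) CPM per kb in Hermes 3A cells. By the longest transcript they were between 4.95 (SPC24) and 17.8 (NUF2) CPM per kb in 501Mel and between 0.934 (SPC24) and 1.90 (NDC80) CPM per kb in Hermes 3A cells.

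All 7 centromere and kinetochore genes were higher in 501Mel cells, with a median log2 fold change of 2.60. CENPA, the histone H3 variant that marks the centromere, was at 34.4 and 25.7 CPM in 501Mel and at 5.93, 2.94 and 3.54 CPM in Hermes 3A cells (log2 fold change 2.86, SE 0.335). CENPF, a large protein of the outer kinetochore and nuclear envelope, was at 329 and 273 CPM against 77.6, 25.0 and 43.8 CPM. The lowest change was that of CENPI, at 20.5 and 21.9 CPM against 9.23, 4.70 and 5.50 CPM (log2 fold change 1.71, SE 0.317), and the highest that of CENPE, a kinetochore motor, at 98.1 and 69.6 CPM against 9.72, 3.81 and 7.90 CPM (log2 fold change 3.56, SE 0.378). CENPI, CENPK, CENPM and CENPN belong to the constitutive network that stays on the centromere through the cell cycle, and their log2 fold changes were 1.71, 2.60, 2.11 and 2.13. Hermes 3A replicate 1 was 1.11-fold above replicate 2 for CENPK and 1.03-fold for CENPN, and CENPN was highest in replicate 3, at 15.7 CPM against 12.5 and 12.1 CPM in replicates 1 and 2.

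The 10 mitotic kinesins were all higher in 501Mel cells, with a median log2 fold change of 3.30. KIF11 (Eg5), which pushes the spindle poles apart, was at 128 and 91.8 CPM in 501Mel and at 17.1, 4.77 and 8.34 CPM in Hermes 3A cells (log2 fold change 3.45, SE 0.480). KIF20A, a motor of the central spindle that carries the passenger complex to the midzone, was at 69.3 and 65.8 CPM against 9.49, 1.71 and 5.67 CPM. KIF14, which acts in cytokinesis, had the largest change, at 57.4 and 31.5 CPM against 4.94, 1.25 and 3.24 CPM (log2 fold change 3.82, SE 0.534). KIF20B had the smallest, at 80.5 and 48.5 CPM against 21.0, 10.0 and 11.4 CPM (log2 fold change 2.19, SE 0.358). KIF2C (MCAK), which removes tubulin from microtubule ends, KIF15, KIF18A, KIF18B, KIF23 and KIF4A lay between these, from 2.58 (KIF18A) to 3.71 (KIF15). KIF4A has a near-identical intronless copy, KIF4B, which was listed at 18 and 16 counts in the 501Mel and at 0 in the Hermes 3A libraries, against 4292 and 3379 counts for KIF4A in 501Mel cells.

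The 5 genes of cytokinesis and the central spindle were higher in 501Mel cells (median log2 fold change 2.76). ANLN (anillin), the scaffold of the contractile ring, was at 206 and 166 CPM in 501Mel and at 41.1, 6.10 and 18.5 CPM in Hermes 3A cells, and its Hermes 3A replicates 1 and 2 differed by 6.74-fold. CEP55, which recruits the abscission machinery to the midbody, changed most, at 79.7 and 60.0 CPM against 14.7, 2.63 and 5.87 CPM (log2 fold change 3.17, SE 0.607). RACGAP1, a subunit of centralspindlin with KIF23, changed least, at 140 and 101 CPM against 38.8, 22.5 and 27.0 CPM (log2 fold change 2.03, SE 0.254). ECT2, the exchange factor for RhoA that RACGAP1 binds, had a log2 fold change of 2.13, and PRC1, which bundles the microtubules of the midzone, one of 2.76.

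The 5 spindle-associated proteins were all higher in 501Mel cells (median log2 fold change 3.44). TPX2, the activator of AURKA on the spindle, was at 273 and 214 CPM in 501Mel and at 35.4, 11.2 and 17.0 CPM in Hermes 3A cells (log2 fold change 3.52, SE 0.443). HMMR changed most, at 79.8 and 53.5 CPM against 7.21, 1.57 and 4.02 CPM (log2 fold change 3.97, SE 0.549). NUSAP1 changed least, at 108 and 90.3 CPM against 28.4, 7.01 and 13.5 CPM (log2 fold change 2.60, SE 0.496). ASPM, a protein of the spindle poles, had the widest spread among the melanocyte libraries of all 57 genes, with Hermes 3A replicate 1 13.4-fold above replicate 2. Its log2 fold change of 3.15 (SE 0.823, edgeR adjusted p 0.0168) did not pass without 501Mel replicate 1 (0.0689) or without Hermes 3A replicate 3 (0.0592).

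Genes of chromosome structure, 8 of 8 higher in 501Mel cells, had a median log2 fold change of 3.55, the highest of the role groups with all libraries. TOP2A (chr17:40388516-40417950 on GRCh38, minus strand), the topoisomerase that untangles sister chromatids, changed most of all 57 genes. It was at 273 and 168 CPM in 501Mel and at 14.9, 3.37 and 11.1 CPM in Hermes 3A cells, 22.6-fold higher on average (log2 fold change 4.50, SE 0.558, edgeR adjusted p 0.000828). MKI67 (Ki-67), the coat of mitotic chromosomes and the usual proliferation marker in pathology, was at 317 and 214 CPM against 36.5, 5.83 and 24.4 CPM (log2 fold change 3.58, SE 0.637). CDCA5 (sororin), which protects cohesion, and CDCA2, which targets a phosphatase to chromatin, had log2 fold changes of 3.62 and 3.10.

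Within condensin, the ring that compacts mitotic chromosomes, the subunits differed. SMC2, the lowest of the group, was at 125 and 96.4 CPM in 501Mel and at 34.0, 23.7 and 28.9 CPM in Hermes 3A cells (log2 fold change 1.94, SE 0.197). SMC2 and SMC4, the ATPases common to condensin I and II, had log2 fold changes of 1.94 and 2.46, and Hermes 3A replicate 1 was 1.44-fold and 1.87-fold above replicate 2. NCAPG and NCAPH, subunits of condensin I, had log2 fold changes of 3.52 and 3.84, with replicate 1 6.29-fold and 4.32-fold above replicate 2. NCAPD2, the remaining subunit of condensin I and not among the 57 genes, was nearer to SMC2, at 1.90 and 1.29-fold, and was named after its value was seen. The difference between the subunits was not tested.

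Of the 5 genes of mitotic exit and proteolysis, 4 were higher in 501Mel cells (median log2 fold change 2.98). CDC20, the activator of the anaphase-promoting complex, was at 118 and 105 CPM in 501Mel and at 24.2, 2.99 and 8.77 CPM in Hermes 3A cells (log2 fold change 3.22, SE 0.702). UBE2C, the ubiquitin-conjugating enzyme of that complex, was at 82.1 and 64.0 CPM against 18.7, 2.12 and 6.95 CPM (log2 fold change 2.98, SE 0.722, edgeR adjusted p 0.0126), and did not pass without 501Mel replicate 1 (0.0522). CDCA3, which promotes the destruction of WEE1, changed most, at 10.6 and 7.23 CPM against 1.20, 0.554 and 0.709 CPM (log2 fold change 3.43, SE 0.431).

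PTTG1 and ESPL1, securin and the protease separase that it inhibits, differed in their change. ESPL1 had a log2 fold change of 2.77. PTTG1 (chr5:160421822-160428744 on GRCh38, plus strand) was at 72.2 and 58.7 CPM in 501Mel and at 59.5, 37.3 and 42.9 CPM in Hermes 3A cells, so that Hermes 3A replicate 1 lay between the 501Mel libraries. Its log2 fold change was 0.49 (SE 0.221, edgeR adjusted p 0.104). Without Hermes 3A replicate 1 it was 0.69, and it passed (0.0135). PTTG3P, a pseudogene close in sequence, was listed at 23 and 4 counts in 501Mel and at 1, 5 and 2 counts in Hermes 3A cells, against 1271 to 3209 counts for PTTG1.

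The 2 genes of mitotic entry were called higher in 501Mel cells, and both calls depended on single libraries. FOXM1, the transcription factor of the G2/M programme, was at 113 and 90.8 CPM in 501Mel and at 37.5, 7.18 and 14.9 CPM in Hermes 3A cells (log2 fold change 2.36, SE 0.580, edgeR adjusted p 0.0133). CDC25C, the phosphatase that activates cyclin-dependent kinase 1, was at 8.26 and 11.1 CPM against 3.58, 0.627 and 1.42 CPM (log2 fold change 2.37, SE 0.644, edgeR adjusted p 0.0196). The groups did not overlap for either. Without Hermes 3A replicate 3 neither passed (0.0502 and 0.0714), FOXM1 did not without 501Mel replicate 1 (0.0585), and CDC25C did not without 501Mel replicate 2 (0.0794).

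**Figure D3:**
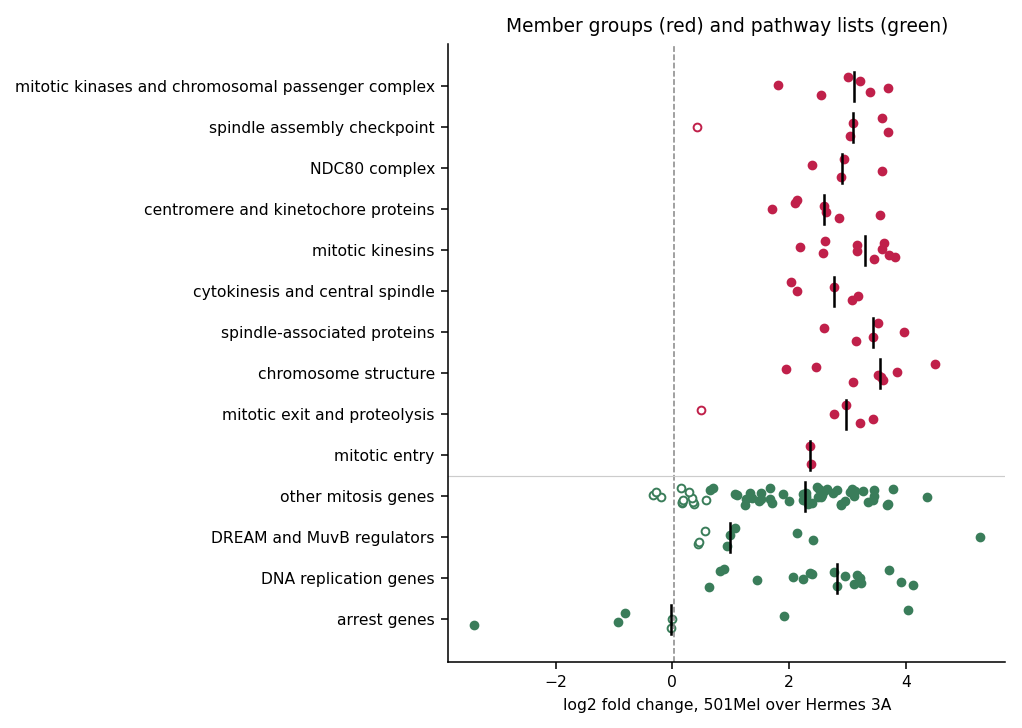
Log2 fold change of 501Mel over Hermes 3A cells (x axis) for each gene of the 10 role groups (red) and of 4 further lists (green). Filled points passed the adjusted p of 0.05, open points did not, black bars are medians, and the dashed line is the median of all genes tested (0.02). CDKN1A, listed at 0 in 501Mel cells, is left out.

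Without Hermes 3A replicate 1, the median log2 fold change of the role groups ran from 2.78 (centromere and kinetochore) to 4.24 (spindle-associated proteins), and all groups were called higher in full except the checkpoint, with 4 of 5. Without Hermes 3A replicate 2 it ran from 1.90 (mitotic entry) to 3.05 (chromosome structure), with BUB3 and PTTG1 not called.

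Hermes 3A replicate 1 stood apart in these genes, and replicate 2 did so in the other direction. Replicate 1 was the highest melanocyte library for 55 of 57 genes, against 41.1% of all genes tested, and at least 2-fold above replicate 2 for 44 of 57, against 4.53%. The order replicate 1, then 3, then 2 held for 54 of 57 genes, against 18.8%. The median log2 difference of replicate 1 over replicate 2 was 1.81 over the mitosis genes and −0.00 over all genes, and replicate 3 stood midway, at 0.86 below replicate 1 and 0.86 above replicate 2. Replicate 1 was at least 2-fold above replicate 3 for 22 genes (6.38% of all genes), and replicate 3 was at least 2-fold above replicate 2 for 23 (1.78%). The median SD of log2 CPM among the Hermes 3A libraries was 0.919 for the mitosis genes and 0.259 for all genes. The 501Mel libraries spread less, with a median log2 difference of 0.33 between replicates 1 and 2, a higher value in replicate 1 for 50 of 57 genes (51.4% of all genes), and no gene differing 2-fold in that direction (6.55% of all genes).

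The spread was not equal among the genes. ASPM (13.4-fold between replicates 1 and 2), DLGAP5 (8.93-fold), UBE2C (8.83-fold), CDC20 (8.09-fold), KIF2C (7.21-fold) and ANLN (6.74-fold) differed most. The 13 genes under 2-fold were INCENP, PLK4, BUB3, MAD2L1, CENPI, CENPK, CENPN, KIF4A, ECT2, RACGAP1, SMC2, SMC4 and PTTG1. Among the genes with a matched promoter, the median ratio of replicate 1 over replicate 2 was 3.94 for the 37 with TTTGAA and 3.15 for the 11 without, given as a description. It was at least 2-fold for 29 of the 37 and for 8 of the 11. The split by CCAAT was much the same, at 3.99 for the 36 with it and 3.27 for the 12 without. Between the lines, the median log2 fold change was 3.10 with TTTGAA and 3.38 without. The part of either element in the spread was not tested. The melanocyte markers summed to 34864, 31778 and 32123 CPM in replicates 1, 2 and 3, and did not move as one: TYRP1 was highest in replicate 1 (17535 CPM, against 9897 and 9493 in replicates 2 and 3) and PMEL lowest there (13330 CPM, against 18523 and 19468), with MITF at 663 to 688 CPM in all 3. The fibroblast markers summed to 82.7, 180 and 192 CPM. The part of these markers in the difference was not tested.

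**Figure D4:**
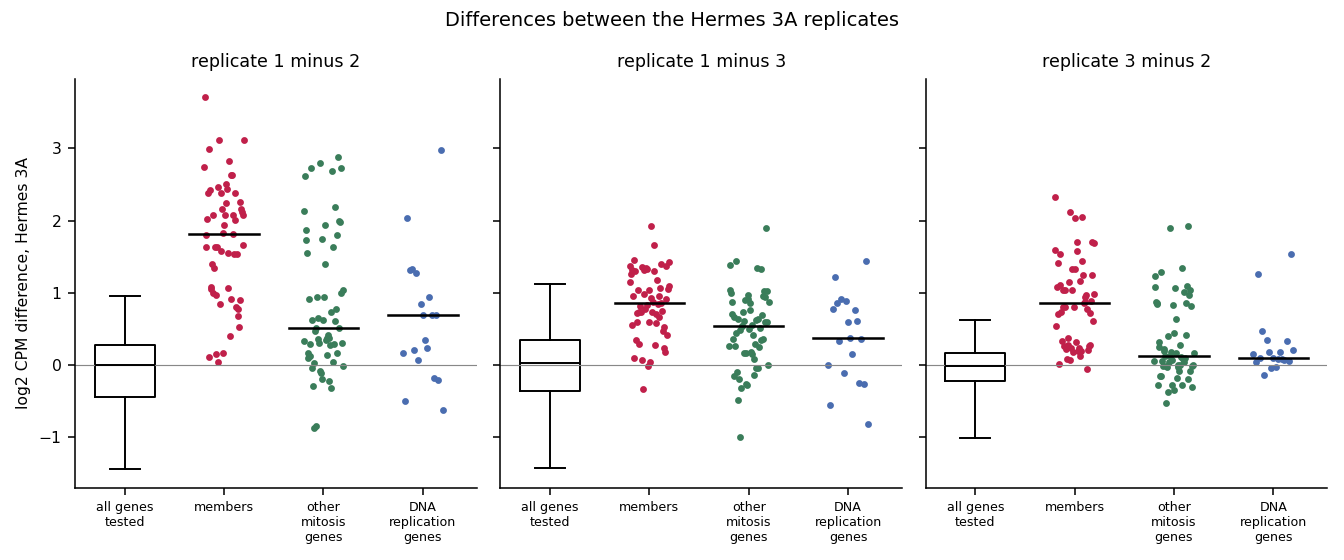
Log2 CPM differences between Hermes 3A replicates (y axis) for all genes tested (box from the lower to the upper quartile, whiskers at the 5th and 95th percentiles), the 57 mitosis genes, 60 other mitosis genes and 19 DNA replication genes (points, with black bars at the medians). The mitosis genes lie above 0 in nearly every case, with medians of 1.81, 0.86 and 0.86 for replicates 1 minus 2, 1 minus 3 and 3 minus 2.

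Per kb of exon (GENCODE 29), the order of the 57 genes was much the same in both lines (Spearman's rho 0.835 over the 57 genes, which share libraries and lengths). In 501Mel cells the highest were TPX2 (67.5 ± 11.6 CPM per kb, SD, n = 2), UBE2C (56.8 ± 9.97), CDC20 (54.7 ± 4.54), AURKA (40.5 ± 7.51) and NUSAP1 (34.5 ± 4.36). In this order TPX2 and UBE2C, UBE2C and CDC20, and AURKA and NUSAP1 did not differ beyond the larger SD of the pair, and NUSAP1 was level with KIF2C (34.4), TOP2A (34.3) and CDCA8 (34.3). In Hermes 3A cells PTTG1 (23.1 ± 5.73, SD, n = 3) and BUB3 (18.5 ± 0.828) came first, within the SD of PTTG1 and above INCENP (7.42 ± 0.508), UBE2C (7.20 ± 6.64) and AURKA (6.90 ± 4.62), which did not differ beyond the SD of UBE2C. PTTG1 and BUB3 stood at ranks 9 and 17 of 57 in 501Mel cells. By the longest transcript they were again first and second in Hermes 3A cells (43.5 and 19.7 CPM per kb) and at ranks 4 and 22 in 501Mel cells, where UBE2C (79.9), TPX2 (67.5) and CDC20 (62.7) led. CDCA3 was the lowest in both lines by either length, at 1.58 ± 0.422 and 0.145 ± 0.0598 CPM per kb.

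Further genes of mitosis, 60 outside the list, passed as higher in 501Mel cells in 48 cases (24.2% of all genes tested did) and did not pass in 12, with a median log2 fold change of 2.27. GTSE1, a microtubule-binding protein of G2, had a log2 fold change of 4.36 and SPAG5 (astrin) one of 3.77. The smallest changes among those called were those of ZW10, a checkpoint protein that also acts in vesicle traffic, at 0.70, and SKA2 at 0.65. The 12 genes that did not pass were CENPC, CENPP, CENPT, NSL1, PMF1, FZR1, CDC16, CDC23, CDC27, CKAP5, MAD1L1 and TUBB4B. Among the Hermes 3A libraries, replicate 1 was at least 2-fold above replicate 2 for 20 of the 60, against 4.53% of all genes tested.

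The regulators of the CHR, the DREAM and MuvB subunits, were tested for 9 of 10 genes. Of these, 6 were higher in 501Mel cells (24.2% of all genes tested were) and 3 did not pass, with a median log2 fold change of 0.99. MYBL2 (B-MYB), which joins MuvB when G2 genes are activated, was at 177 and 104 CPM in 501Mel and at 6.65, 0.747 and 3.58 CPM in Hermes 3A cells (log2 fold change 5.27, SE 0.729, edgeR adjusted p 0.00127), with the Hermes 3A libraries in the same order as the mitosis genes. LIN9, a core subunit, had a log2 fold change of 2.41, RBBP4, a histone-binding subunit that NURF also contains, one of 0.99, and E2F4, the repressive E2F of DREAM, one of 0.93. LIN52, LIN54 and RBL2 did not pass, and LIN37 was listed for Hermes 3A cells alone and not tested.

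All 19 genes of DNA replication were higher in 501Mel cells (24.2% of all genes tested were), with a median log2 fold change of 2.81. With RLE, no filter, the replicate block, or without Hermes 3A replicate 1 or 3, 18 were called. Without Hermes 3A replicate 2, 17 were. CDC45 (4.13) and GINS1 (3.91), parts of the replicative helicase, changed most, and the clamp PCNA (0.81) and cyclin E1 (CCNE1, 0.63) least. Their median log2 difference of Hermes 3A replicate 1 over replicate 2 was 0.69, and 5 of the 19 differed by at least 2-fold in that direction, against 44 of the 57 mitosis genes and 4.53% of all genes tested.

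Among 8 genes tied to arrest and senescence, 4 were lower in 501Mel cells (24.0% of all genes tested were), 2 higher (24.2% of all) and 2 not called. The 4 include CDKN1A, and 3 were lower when only genes with at least 10 counts in every library were tested. CDKN1A (p21), the inhibitor of cyclin-dependent kinases induced by p53, was listed at 0 counts in both 501Mel libraries and at 33363, 31620 and 34023 counts (853, 762 and 1148 CPM) in Hermes 3A cells. No fold is given, since 12 other genes with at least 1000 counts in every Hermes 3A library were also listed at 0 in both 501Mel libraries, and whether such a 0 reflects level or counting was not tested. CDKN1C (p57) was at 1.37 and 0.470 CPM in 501Mel against 6.62, 12.8 and 10.1 CPM in Hermes 3A cells (log2 fold change −3.40), and CDKN2A (−0.93) and GLB1, the lysosomal galactosidase (−0.82), were also lower. LMNB1 (lamin B1), whose loss accompanies senescence, was higher in 501Mel cells (4.04), at 158 and 160 CPM against 11.3, 9.06 and 8.50 CPM, as was CDKN2C (1.91). CDKN1B and CDKN2B had log2 fold changes of −0.02 and −0.01. CDKN1A and LMNB1 did not follow the order of the mitosis genes among the Hermes 3A libraries in full, CDKN1A being highest in replicate 3 and LMNB1 in replicate 1.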

How the data were processed

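RNA-seq libraries of shBPTF cells, 2 of 501Mel and 3 of Hermes 3A, were grouped by the cell line and replicate in their labels. Total RNA was depleted of rRNA and the libraries were normalised with a duplex-specific nuclease, which lowers abundant cDNAs and can compress differences in level. The deposited values are raw whole-number counts, 1 per Ensembl gene, to which no normalization was applied. Per the labels, CASAVA 1.8, TopHat 1.4.1 and Bowtie 0.12.7 were used on hg19, and the counting program and annotation are not given in the sources used here. The files listed 37259 genes for 501Mel and 34033 for Hermes 3A. The 31029 in both were used, and the remaining ones held at most 0.712% of the counts of a library. Names, lengths and positions are from GENCODE 29 (GRCh38) and may differ from the annotation used for counting.

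CPM were scaled by TMM. Lines were compared with edgeR 4.0.16 (glmQLFit, glmQLFTest, filterByExpr, R 4.3.3) over 17975 genes, with calls at an adjusted p (Benjamini-Hochberg) of 0.05, after the script was tested on simulated data. Alternatives were DESeq2 1.42.0, RLE or library totals, no filter or at least 10 counts in every library, the replicate block, leaving out each library and, chosen after the data were seen, adding the genes of either list with missing values as 0. Each SE is the absolute log2 fold change divided by the square root of the F statistic of the edgeR test, and is not a separate estimate. With 2 against 3 libraries an exact permutation test cannot go below 0.1 and none was run. The total depth puts 3 counts at 0.0697 to 0.0998 CPM, for counting error only.

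The 57 genes, their role groups and the other lists were chosen with earlier results of these data known. Values per library are given for 18 genes chosen as the best known of their roles and for the genes with the highest and lowest log2 fold change of each role group, and of each other list the 2 highest and 2 lowest among those called are named. Of the keratinocyte markers, KRT10 and DSG3 were in both lists, summing to 31.8 to 33.8 CPM in 501Mel and 42.9 to 50.7 CPM in Hermes 3A cells.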

Additional observations from a re-analysis of the deposited data

How the results depend on the processing

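The number of mitosis genes called higher in 501Mel cells was between 51 and 56 under every alternative run, with 0 called lower, and their median log2 fold change lay between 2.63 (without Hermes 3A replicate 2) and 3.79 (without Hermes 3A replicate 1). No direction reversed for any of the 57 genes. Leaving out 1 library at a time gave 2864 to 4595 genes higher among all genes tested (4354 with all libraries, 2864 without 501Mel replicate 1), 3195 to 4687 genes lower (4315 with all), and 0 to 2 of the 2 genes of mitotic entry (1 without 501Mel replicate 1, 1 without 501Mel replicate 2, 0 without Hermes 3A replicate 3). Where 501Mel keeps 1 library, it is assumed to vary like the Hermes 3A libraries. SPC24, ASPM, UBE2C, FOXM1 and CDC25C each lost the call when a single library was left out, and BUB3 and PTTG1 gained it, as given with these genes. With DESeq2, 4340 genes were higher and 4725 lower, and 55 of the 57 mitosis genes were higher.

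The replicate numbers mark no shared culture or day in the labels. The difference of replicate 1 minus 2 correlated between the lines with r of 0.122 across 17975 genes, over 2 shared numbers, which is too few to show whether the numbers pair the libraries, and no pairing was assumed. With the replicate block, 55 of the 57 genes were higher, with a median log2 fold change of 3.20, and 3627 of all genes were higher and 3834 lower.

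Every one of these genes had at least 10 counts in all libraries, but some Hermes 3A counts were low. CDCA3 had 23 and 21 counts in replicates 2 and 3, and in replicate 2 CDC25C had 26 and SPC24 34. The part of counting error in the results was not tested. The number of libraries, the spread among those of Hermes 3A and the absence of control libraries from the comparison limit what can be read.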
